A study of Mus musculus with 12 samples.

Results

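The cardiac macrophage marker genes examined here are Csf1r, Adgre1, Cd68, Mrc1, Lyz2, C1qa, C1qb, C1qc, Cd163 and Lyve1. They are the 10 rows carrying these symbols among the 33641 genes listed for every sample. All 10 were detected in all 12 samples. All 10 also had a mean level of at least 0.5 TPM and were among the 12526 genes tested. TPM is a gene's share of a sample's transcripts, corrected for gene length, and it sums to 1000000 in every sample. It holds no read numbers, so the depth behind each value is unknown.

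The study compared hearts that express human wild-type phospholamban (WT-PLN) with hearts that express the R14del form of human phospholamban (R14del-PLN), a deletion of an arginine that is linked to arrhythmogenic cardiomyopathy. RNA was sequenced from the left ventricle (LV) and the right ventricle (RV), giving 4 groups of 3 samples. WT-PLN LV and WT-PLN RV samples carry the label wild-type, and R14del-PLN LV and R14del-PLN RV samples carry the genotype label R14del-PLN and a title that reads KO. All mice are labelled C57BL/6J and were 12 to 14 weeks old.

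In both genotypes the human coding sequence had been placed in exon 2 of mouse Pln by gene targeting, so the control hearts carry the replacement too. Per the study's methods, the genetic background of the line is mixed (129/Sv-CP and C57Bl/6J), and its breeding included a cross to the Cre driver Sox2-Cre. The mutant animals used in the study were male heterozygotes (R14del/WT), and the samples themselves are labelled only R14del-PLN. The labels do not say whether replicates are separate mice or whether LV and RV samples with one replicate number share a heart, so p-values measure the spread between these samples.

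Some samples stood apart. Summed over 4 Y-linked genes, the WT-PLN LV and WT-PLN RV samples with replicate number 1 held 0.284 and 0.25 TPM, whereas the remaining 10 samples held 43.5 to 63.7, although the study's methods give male mice. R14del-PLN RV replicate 3 carried another sequencing run number than the other 11 samples. The 4 atrial cardiomyocyte genes (Sln, Myl7, Myl4, Nppa) summed to 45.6 TPM in the lowest sample and 1296 TPM in the highest, WT-PLN LV replicate 3. The 13 mitochondrially encoded genes took 37.3% to 54.5% of all TPM. The 6 genes listed for ventricular cardiomyocytes (Myh6, Tnnt2, Actc1, Ryr2, Myl2, Myl3) summed to 28710 TPM in the lowest sample and 44200 in the highest. Heart muscle transcripts were thus abundant in all 12, and the sum does not tell ventricular from atrial muscle.

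Macrophages of the heart include long-lived resident cells seeded before birth and cells that derive from blood monocytes. Their survival depends on colony-stimulating factor signalling through the receptor encoded by Csf1r, and they clear dying cells and expelled mitochondria, support the blood and lymph vessels and make electrical contact with conducting myocytes. Adgre1 encodes the surface receptor F4/80, and Cd68 encodes a lysosomal membrane glycoprotein. Lyz2 encodes lysozyme M, which digests bacterial cell walls. C1qa, C1qb and C1qc encode the chains of C1q, the recognition molecule of the classical complement pathway. Mrc1 encodes the mannose receptor CD206, Cd163 encodes the receptor that takes up haptoglobin-bound haemoglobin, and Lyve1 encodes a hyaluronan receptor of tissue macrophages and of lymphatic endothelium. In whole ventricle, fewer cells of a type and less RNA per cell cannot be told apart.

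The DNA upstream of 5 genes is shown because the results turn on them: Cd163, the member with the largest genotype difference; C1qb and C1qc, neighbouring chains of one protein; and Lyz2 with Lyz1, its near-identical copy. Each line gives the 250 bases before the annotated start, 5′ to 3′ on the gene's strand, from RefSeq on GRCm38.p6. RefSeq starts can differ from the GENCODE gene boundaries given for the members, so 151 bases of the C1qc window and 49 of the Lyz2 window lie inside the GENCODE gene. Capitals mark the short motif AGGAA or its reverse complement TTCCT, and the longer GAGGAA or its reverse complement TTCCTC, which contains the short one. These letters form the core of the sites bound by ETS factors, among them PU.1, the product of Spi1 and a lineage factor of macrophages.
Cd163, chr6:124304401-124304650, plus strand: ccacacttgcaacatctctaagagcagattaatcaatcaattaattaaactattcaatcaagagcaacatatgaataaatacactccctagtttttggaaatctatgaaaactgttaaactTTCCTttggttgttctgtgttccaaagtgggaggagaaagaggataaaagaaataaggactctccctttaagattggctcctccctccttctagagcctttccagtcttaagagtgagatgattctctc
C1qb, chr4:136886201-136886450, minus strand: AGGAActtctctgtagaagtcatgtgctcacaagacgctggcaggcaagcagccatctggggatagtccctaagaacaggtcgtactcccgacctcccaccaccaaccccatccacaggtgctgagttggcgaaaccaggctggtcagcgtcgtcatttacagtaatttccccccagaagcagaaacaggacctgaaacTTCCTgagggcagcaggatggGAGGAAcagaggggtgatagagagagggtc
C1qc, chr4:136892915-136893164, minus strand: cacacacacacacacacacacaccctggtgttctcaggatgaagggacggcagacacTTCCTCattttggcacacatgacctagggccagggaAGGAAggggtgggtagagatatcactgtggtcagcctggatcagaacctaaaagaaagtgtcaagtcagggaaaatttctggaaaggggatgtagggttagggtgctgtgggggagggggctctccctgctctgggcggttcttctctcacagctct
Lyz2, chr10:117282273-117282522, minus strand: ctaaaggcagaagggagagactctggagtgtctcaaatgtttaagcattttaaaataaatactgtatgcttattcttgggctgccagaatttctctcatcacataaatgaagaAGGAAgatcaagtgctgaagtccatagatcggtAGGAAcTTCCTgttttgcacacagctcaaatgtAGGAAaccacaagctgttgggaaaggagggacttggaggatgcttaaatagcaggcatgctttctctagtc
Lyz1, chr10:117292869-117293118, minus strand: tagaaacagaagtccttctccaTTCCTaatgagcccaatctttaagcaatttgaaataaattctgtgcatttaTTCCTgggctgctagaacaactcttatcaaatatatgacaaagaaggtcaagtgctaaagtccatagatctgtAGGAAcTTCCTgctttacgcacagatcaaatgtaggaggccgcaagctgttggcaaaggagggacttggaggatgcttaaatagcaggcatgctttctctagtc

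Searched on both strands, AGGAA occurred 1 time upstream of Cd163, 3 times upstream of C1qb, 2 times upstream of C1qc and 4 times upstream of both Lyz2 and Lyz1. GAGGAA occurred 1 time upstream of C1qb and 1 time upstream of C1qc, and it was not in the windows of Cd163, Lyz2 and Lyz1. Of the other members, Cd68 held 1 match of each motif, and Mrc1 held 3 of GAGGAA and 6 of AGGAA. Among all 32851 promoters of the same length, 23.3% held GAGGAA and 60.3% held AGGAA, so a match to the short motif was the usual state. Aligned base by base with no gaps, the Lyz2 and Lyz1 windows were identical at 152 of 250 bases and at 92 of the 100 bases nearest the start. No upstream sequence is given for Csf1r, Adgre1, C1qa and Lyve1.

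The members lie on 8 chromosomes of GRCm38. Cd163 spans chr6:124304656-124330527 on the plus strand, Lyve1 chr7:110850607-110863239 on the minus strand, Mrc1 chr2:14229392-14332057 on the plus strand, Adgre1 chr17:57358691-57483527 on the plus strand and Cd68 chr11:69664213-69666153 on the minus strand. Csf1r is on chromosome 18. C1qb, C1qc and C1qa follow one another on the minus strand of chromosome 4 within 18675 bases, from 136880129 to 136898803. Lyz2 at chr10:117277331-117282321 and Lyz1 are 5475 bases apart on the minus strand of chromosome 10. All are annotated as protein-coding. Csf1r overlaps Hmgxb3 on the opposite strand (mean 3.27 TPM), the library was stranded per the study's methods, and whether the counting used the strand is not given in the sources used here.

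Per gene length, the order of mean levels over the 12 samples ran from Lyz2 at 66.6 TPM through C1qa at 32.2, C1qc at 23.6, C1qb at 22.6, Lyve1 at 10.3, Csf1r at 8.32, Mrc1 at 5.25, Cd163 at 5.17 and Cd68 at 4.47 to Adgre1 at 2.58 TPM. Lyz2 exceeded 93.5% of all tested genes and Adgre1 28.3%. Neighbours kept this order in 12 of 12 samples for Lyz2 over C1qa, C1qa over C1qc, C1qb over Lyve1, Csf1r over Mrc1 and Cd68 over Adgre1. C1qc was above C1qb in 8 of 12 samples, 5 of 6 WT-PLN and 3 of 6 R14del-PLN, so the order of this pair was not kept in every sample. Lyve1 was above Csf1r in 6 of 6 WT-PLN and 4 of 6 R14del-PLN samples. The place of Cd163 in the order was not the same in both genotypes: Mrc1 was above Cd163 in 1 of 6 WT-PLN and 6 of 6 R14del-PLN samples, and Cd163 was above Cd68 in 5 of 6 WT-PLN and 1 of 6 R14del-PLN samples. These counts are a description with no test.

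Cd163 gave the largest genotype difference of the members in both ventricles. In LV it measured 6.08, 7.45 and 5.23 TPM in the WT-PLN samples and 2.92, 4.25 and 2.82 TPM in the R14del-PLN samples. In RV it measured 7.34, 7.96 and 6.56 TPM in WT-PLN and 4.54, 4.42 and 2.497 TPM in R14del-PLN. Every R14del-PLN sample lay below every WT-PLN sample, within each ventricle and across both. Within a ventricle, 8.47% of all genes in LV and 5.79% in RV were lower with no overlap. The share of all genes that did so across both is not given here. The group means were 6.25 ± 1.12 against 3.33 ± 0.795 TPM in LV and 7.29 ± 0.704 against 3.82 ± 1.15 TPM in RV (SD, n = 3).

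On the log2(TPM + 1) scale, which understates the change of low genes, the R14del-PLN minus WT-PLN difference of Cd163 was -0.75 in LV (SE 0.19, 95% interval -1.16 to -0.33) and -0.81 in RV (SE 0.19, -1.23 to -0.39). These correspond to ratios of 0.595 and 0.571 in TPM + 1, R14del-PLN to WT-PLN. A gene was called at a limma p, adjusted over all 12526 genes by Benjamini-Hochberg, of at most 0.05 together with a change of at least 1.5-fold. Cd163 was not called in either ventricle, with limma adjusted p = 0.145 in LV and 0.135 in RV. By unadjusted p it ranked 160 of all genes in LV and 95 in RV. The difference did not itself differ between the ventricles beyond the error: the interaction was -0.060 (95% interval -0.65 to 0.53, limma adjusted p = 0.9999).

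Averaged over both ventricles, a comparison chosen after Cd163 had been seen to be lower in each, Cd163 fell from 6.77 to 3.58 TPM. The log2 difference was -0.78 (SE 0.14, 95% interval -1.08 to -0.48, limma adjusted p = 0.0106), lower in 6 of 6 R14del-PLN samples. It was the only member called there, where 1.33% of all genes were called and 0.982% were called lower. At an unadjusted limma p under 0.05 the members were Cd163 and Lyve1, against 13.1% of all genes. With LV and RV samples of one number averaged into a single value, the call was lost (limma adjusted p = 0.0646). It was also lost at limma adjusted p = 0.0878 and 0.147 without WT-PLN replicate 2 and without R14del-PLN replicate 3, where the difference was -0.69 and -0.63. Without the WT-PLN replicate 1 samples, whose Y-linked genes went against the stated sex, it was -0.78 (limma adjusted p = 0.0152). Without R14del-PLN RV replicate 3, the sample of the other run, the difference in RV alone was -0.59 (limma adjusted p = 0.441).

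Red cell genes were read beside Cd163, and 3 of 5 fell in the averaged comparison, where 0.982% of all genes were called lower. The 5 red cell genes (Hba-a1, Hba-a2, Hbb-bs, Hbb-bt and Alas2) summed to 2087 to 2316 TPM in WT-PLN LV, 1093 to 2142 in R14del-PLN LV, 1461 to 1736 in WT-PLN RV and 956 to 1368 in R14del-PLN RV. The globin gene Hbb-bs measured 1033, 970 and 919 TPM in WT-PLN LV and 459, 621 and 890.5 TPM in R14del-PLN LV. Of the 5, none was called within a ventricle. At an unadjusted limma p under 0.05 the counts were 4 in LV and 3 in RV, all lower. Of all genes 7.85% were lower at that p in LV and 3.4% in RV. The list medians were -0.62 and -0.59 on the log2 scale. In the averaged comparison Hba-a1 (-0.64 log2), Hbb-bs (-0.60) and Hbb-bt (-0.75) fell at limma adjusted p = 0.02997, 0.04603 and 0.0343. Over 13 alternatives these calls held in 7, 4 and 7, respectively, and their signs held in all 13. Hba-a2 (-0.37, limma adjusted p = 0.503) and Alas2 (-0.52, 0.1197) did not pass there or in any of the 13. Near-identical globin copies may divide their reads. The part of these genes in the Cd163 difference was not tested.

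**Figure D1:**
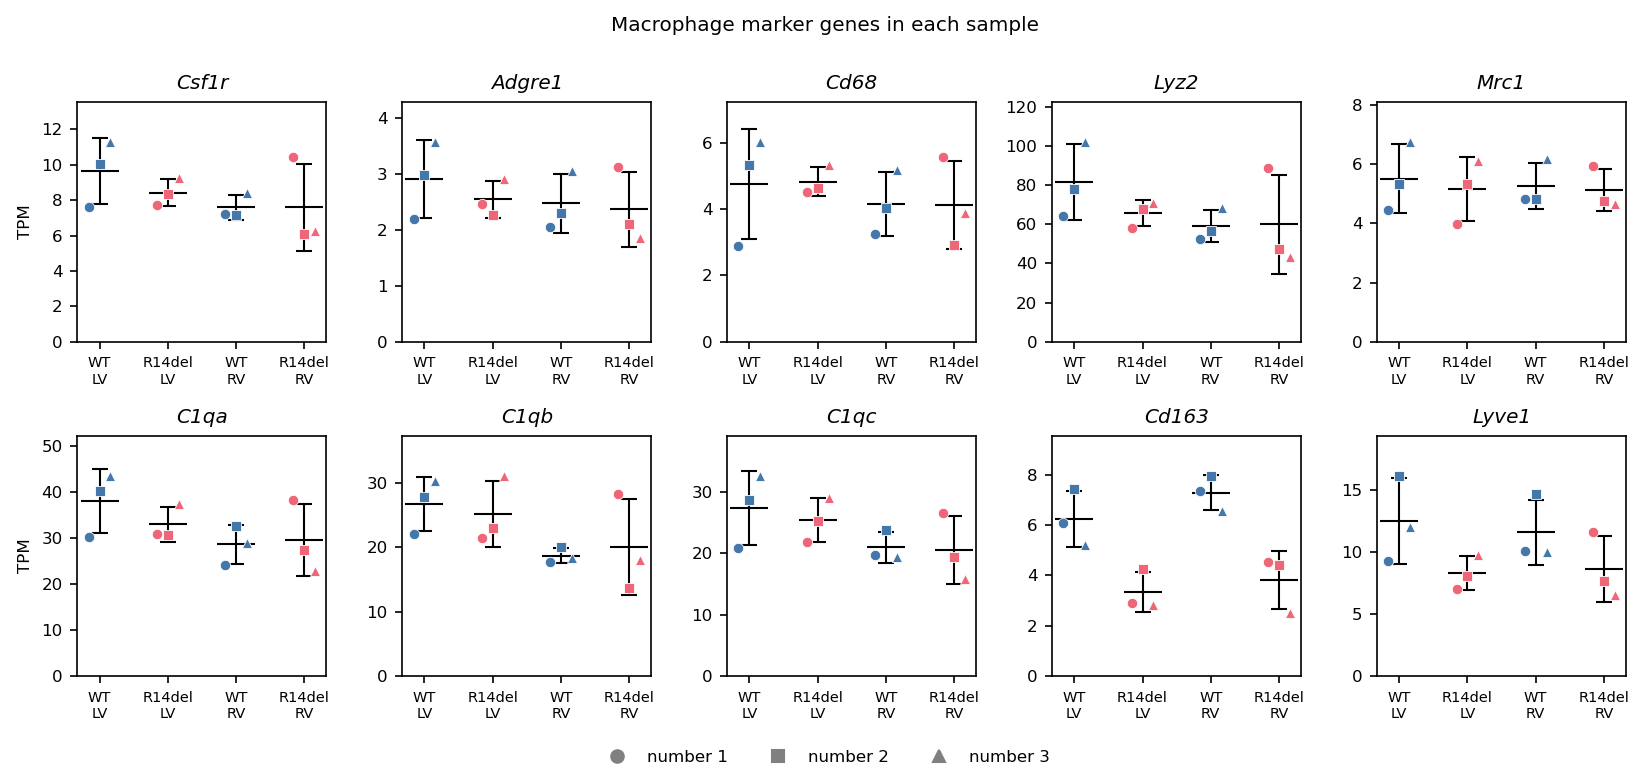
TPM of the 10 macrophage marker genes in each of the 12 samples, 1 panel per gene with its own axis from 0. Points are samples (blue WT-PLN, red R14del-PLN, shape by replicate number) and the bars are the group mean ± SD of 3 samples. For Cd163 the 6 R14del-PLN samples sit between 2.50 and 4.54 TPM, below the 6 WT-PLN samples at 5.23 to 7.96 TPM, while the groups overlap between genotypes for the other 9 genes in both ventricles.

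Lyve1 gave the next largest genotype difference, and it was not called. It measured 9.28, 16.2 and 12.04 TPM in WT-PLN LV against 7.02, 8.09 and 9.79 TPM in R14del-PLN LV. In RV it measured 10.1, 14.7 and 10.02 TPM in WT-PLN against 11.6, 7.71 and 6.53 TPM in R14del-PLN. The ranges overlapped in both ventricles, in LV through the highest R14del-PLN sample and the lowest WT-PLN sample. The log2 difference was -0.52 in LV (95% interval -1.004 to -0.027, limma adjusted p = 0.484) and -0.41 in RV (-0.89 to 0.084, 0.928). The average over ventricles was -0.46 (SE 0.17, limma adjusted p = 0.236), and it moved to -0.28 without WT-PLN replicate 2, which held the highest Lyve1 level of its group in each ventricle.

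Because lymphatic endothelium also expresses Lyve1, 6 lymphatic genes were read beside it. Their summed level was 35.5 to 63.1 TPM in WT-PLN LV, 35.5 to 56.5 in R14del-PLN LV, 43.3 to 47.3 in WT-PLN RV and 40.5 to 62.9 in R14del-PLN RV. Their median log2 difference was -0.094 in LV and -0.089 in RV, and the LV value changed sign to 0.038 without WT-PLN LV replicate 3. Ccl21a, a lymphatic chemokine, differed by -0.14 in LV, and Prox1, the lymphatic identity factor that heart muscle also expresses, by 0.59 in LV (limma adjusted p = 0.329), the opposite sign to Lyve1. At an unadjusted limma p under 0.05 there were 3 of 6 in LV, Prox1 higher with Flt4 and Mmrn1 lower, against 9.6% of all genes. By adjusted p 0 of the 6 were called. Summed over the list, the genotypes overlapped in both ventricles, and the part of lymphatic endothelium in the Lyve1 values was not tested.

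The pan-macrophage genes Csf1r, Adgre1 and Cd68 did not pass the test in any comparison. Csf1r measured 7.64, 10.1 and 11.3 TPM in WT-PLN LV, 7.71, 8.34 and 9.23 in R14del-PLN LV, 7.196, 7.17 and 8.42 in WT-PLN RV and 10.4, 6.099 and 6.28 in R14del-PLN RV. The lowest and the highest LV samples were both WT-PLN, and the highest RV sample was R14del-PLN replicate 1. The R14del-PLN minus WT-PLN log2 difference of Csf1r was -0.17 in LV (95% interval -0.57 to 0.23) and -0.032 in RV (-0.43 to 0.37), and the RV value changed sign without mitochondrially encoded genes.

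Adgre1 measured 2.19, 2.99 and 3.58 TPM in WT-PLN LV and 2.47, 2.27 and 2.92 in R14del-PLN LV, with 2.06, 2.304 and 3.06 in WT-PLN RV and 3.13, 2.11 and 1.87 in R14del-PLN RV. Its log2 difference was -0.13 in LV (SE 0.18) and -0.052 in RV (SE 0.18). Cd68 measured 2.88, 5.33 and 6.04 TPM in WT-PLN LV and 4.53, 4.63 and 5.33 in R14del-PLN LV, with 3.26, 4.03 and 5.18 in WT-PLN RV and 5.57, 2.93 and 3.895 in R14del-PLN RV. WT-PLN LV held both the lowest LV sample of Cd68, replicate 1, and the highest, replicate 3. The log2 difference of Cd68 was 0.062 in LV (SE 0.23), which turned to -0.20 without the WT-PLN replicate 1 samples, and -0.023 in RV (SE 0.23), where upper quartile scaling and removal of mitochondrially encoded genes changed the sign.

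Lyz2 was the most abundant member. It measured 64.3, 78.2 and 102 TPM in WT-PLN LV, 58.3, 67.9 and 70.95 in R14del-PLN LV, 52.6, 56.7 and 68.3 in WT-PLN RV and 88.9, 47.6 and 43.4 in R14del-PLN RV. The highest samples were WT-PLN LV replicate 3 and R14del-PLN RV replicate 1, so the group ranges overlapped in both ventricles. The log2 difference between genotypes was -0.29 in LV (SE 0.24, limma adjusted p = 0.773) and -0.048 in RV (SE 0.24).

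Lyz1, which encodes lysozyme P, shared 95.8% of 1264 aligned transcript bases with Lyz2, so reads of the pair may be divided between them. It measured 0.172, 0.691 and 2.01 TPM in WT-PLN LV, 0.276, 0.873 and 0.423 in R14del-PLN LV, 0.659, 1.78 and 1.61 in WT-PLN RV and 1.99, 0.584 and 0.486 in R14del-PLN RV. Lyz2 exceeded Lyz1 by 31.8 to 374 times in single samples, and Lyz1 stayed at or below 2.01 TPM in all 12.

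The 3 genes for C1q did not pass the test between genotypes. C1qa measured 30.2, 40.2 and 43.5 TPM in WT-PLN LV, 30.7, 30.6 and 37.3 in R14del-PLN LV, 24.2, 32.6 and 28.8 in WT-PLN RV and 38.3, 27.4 and 22.9 in R14del-PLN RV. C1qb measured 22.02, 27.7 and 30.2 TPM in WT-PLN LV, 21.4, 23.02 and 31.1 in R14del-PLN LV, 17.8, 20.01 and 18.4 in WT-PLN RV and 28.3, 13.7 and 17.99 in R14del-PLN RV. The genotypes overlapped for both genes in both ventricles. C1qc measured 20.8, 28.7 and 32.6 TPM in WT-PLN LV, 21.9, 25.2 and 29.1 in R14del-PLN LV, 19.7, 23.9 and 19.4 in WT-PLN RV and 26.5, 19.4 and 15.8 in R14del-PLN RV.

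Within a sample the chains kept close proportions. C1qa was 1.22 to 1.49 times C1qc over the 12 samples, and C1qb was 0.708 to 1.14 times C1qc. The genotype log2 differences in LV were -0.19 for C1qa, -0.085 for C1qb and -0.089 for C1qc, with SE of 0.19 to 0.22, and those of C1qb and C1qc changed sign under quantile normalisation and upper quartile scaling. In RV they were 0.025, 0.034 and -0.051, where those of C1qa and C1qb changed sign without the WT-PLN replicate 1 samples. All 6 of these 95% intervals contained 0.

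Mrc1, which encodes the mannose receptor, measured 4.44, 5.31 and 6.75 TPM in WT-PLN LV, 3.98, 5.34 and 6.11 in R14del-PLN LV, 4.82, 4.81 and 6.16 in WT-PLN RV and 5.93, 4.75 and 4.66 in R14del-PLN RV. The genotypes overlapped in both ventricles, with log2 differences of -0.082 in LV (95% interval -0.45 to 0.29) and -0.034 in RV (-0.40 to 0.33). The LV value changed sign under quantile normalisation and upper quartile scaling, and the RV value without mitochondrially encoded genes.

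Counted together, 0 of 10 members were called by limma between genotypes in LV, where 0.519% of all genes were called, and 0 of 10 in RV, where 0.271% were. At an unadjusted p under 0.05 the counts were 2 in LV (Cd163 and Lyve1) and 1 in RV (Cd163), against 9.6% and 6.22% of all genes (7.85% and 3.4% counting lower genes alone). Cd163 was also the 1 member whose genotype ranges did not overlap, in each ventricle, against 11% of all genes in LV and 11% in RV (8.47% and 5.79% counting lower genes alone). The median log2 difference of the members was -0.15 in LV beside -0.086 over all tested genes, and -0.041 in RV beside -0.0034. Without WT-PLN LV replicate 3 the LV medians were -0.033 for the members, 6 of 10 below 0, and -0.024 for all genes. Without both WT-PLN replicate 1 samples the LV differences moved the other way. Every member was then below 0, from -0.76 for Cd163, -0.70 for Lyve1 and -0.44 for Lyz2 to -0.20 for Cd68. In LV 9 of 10 members were below 0 as were 71.7% of all genes, and in RV 8 of 10 were, as were 50.9%, counts that change with scaling where the single values above changed sign.

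**Figure D2:**
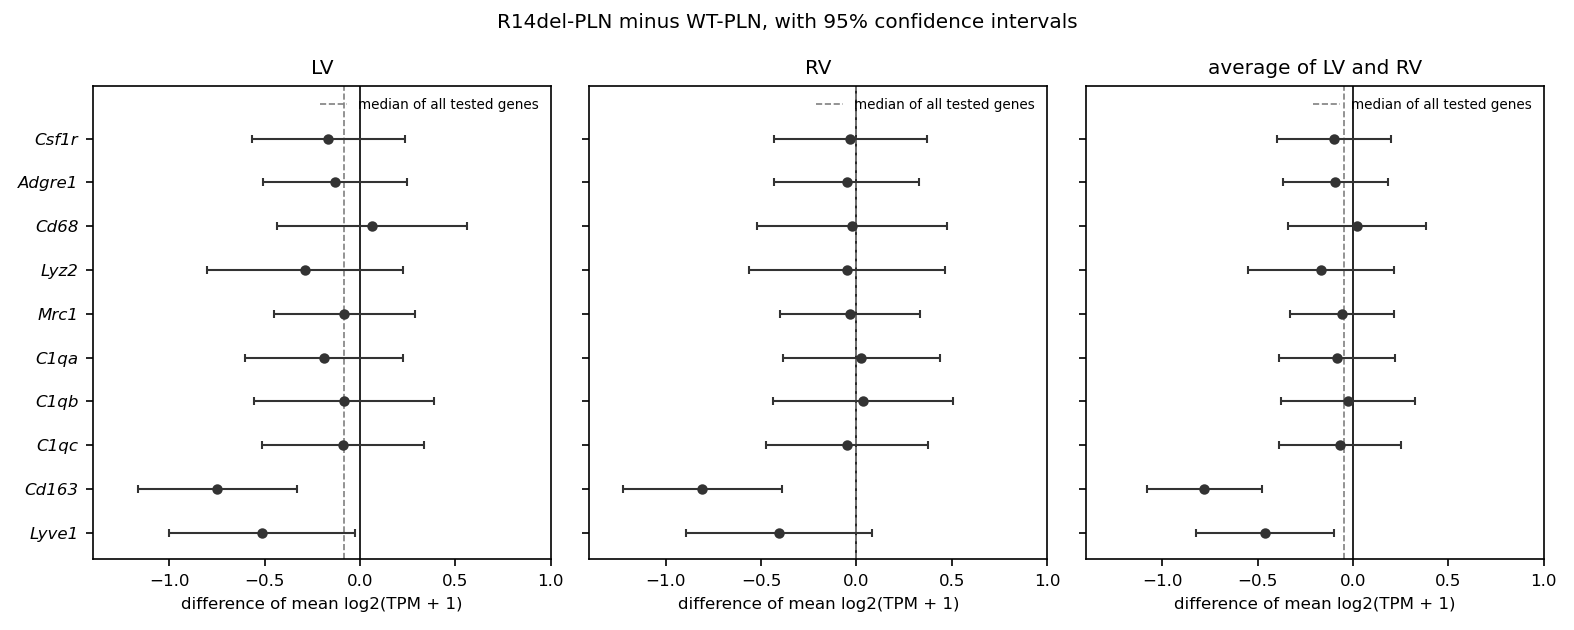
Difference of mean log2(TPM + 1), R14del-PLN minus WT-PLN, for each marker gene in LV, in RV and averaged over both, with points for the limma estimate and bars for its 95% confidence interval. The dashed line is the median of all tested genes. Only the Cd163 interval lies below 0 in all 3 panels, from -1.16 to -0.33 in LV, and the Lyve1 interval does so in LV and in the average.

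Read within each sample, the markers followed Csf1r to differing degrees. Adgre1 was 0.273 to 0.364 times Csf1r over the 12 samples, Lyz2 6.91 to 9.04 times and the 3 C1q chains summed 7.91 to 10.7 times. Mrc1 was 0.516 to 0.779 times Csf1r, Cd68 0.377 to 0.62 times and Lyve1 0.911 to 2.04 times. Relative to its lowest value Cd163 ranged most widely, from 0.306 to 1.11 times Csf1r. A ratio within a sample does not depend on how much of the TPM other genes take.

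The ratio of Cd163 to Csf1r was 0.666 ± 0.179 in WT-PLN LV, 0.398 ± 0.103 in R14del-PLN LV, 0.970 ± 0.172 in WT-PLN RV and 0.5197 ± 0.179 in R14del-PLN RV (SD, n = 3). The genotypes did not overlap in RV, at 0.779 to 1.11 against 0.398 to 0.726, and overlapped in LV, at 0.462 to 0.796 against 0.306 to 0.509. The ratio of Lyve1 to Csf1r was 1.065 to 1.61 in WT-PLN LV and 0.911 to 1.06 in R14del-PLN LV, with no overlap, and 1.19 to 2.04 against 1.04 to 1.26 in RV, with overlap. For Mrc1 the ratio was 0.569 ± 0.0365 in WT-PLN LV and 0.606 ± 0.0786 in R14del-PLN LV, with overlap. For Cd68 it was 0.4802 ± 0.0891 and 0.573 ± 0.0163. The Cd68 ratio did not overlap in LV either, at 0.377 to 0.534 in WT-PLN against a higher 0.555 to 0.587 in R14del-PLN. In RV it overlapped. Separation in 1 ventricle was thus not particular to Cd163 and Lyve1, and its frequency among ratios of other genes was not counted. These ratios are given as a description.

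**Figure D3:**
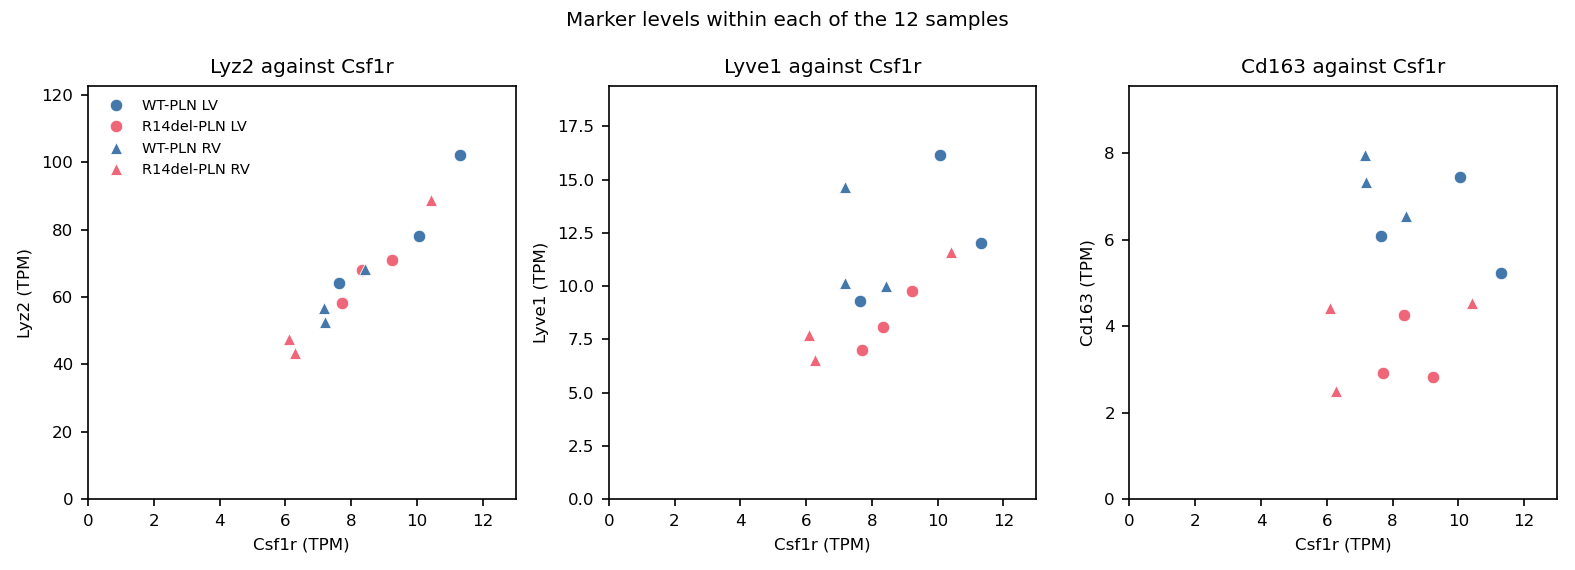
Lyz2, Lyve1 and Cd163 (TPM) plotted against Csf1r (TPM) in the same sample, with blue for WT-PLN, red for R14del-PLN, circles for LV and triangles for RV. Lyz2 climbs with Csf1r over the 12 samples (Pearson correlation 0.98 on the log2 scale), whereas for Cd163 the R14del-PLN samples lie at 2.50 to 4.54 TPM, below all WT-PLN samples.

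Over the 12 samples the 45 pairs of members had a median Pearson correlation of 0.73 on the log2 scale, from -0.12 to 0.98, with Csf1r and Lyz2 at the top. Each gene's median correlation with the other 9 was 0.86 for Csf1r and 0.85 for C1qa, 0.58 for Lyve1 and 0.15 for Cd163. With group means removed, the median over pairs was 0.78, and that of Cd163 with the others was 0.16. The genes of a sample share its library, tissue piece and scaling, and the median correlation of all tested genes with the mean member profile was already 0.47.

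The members also deviated together from sample to sample within a group. In R14del-PLN RV replicate 1, 10 of 10 members were above their group mean, with a median deviation of 0.39 on the log2 scale. In WT-PLN LV replicate 1, R14del-PLN LV replicate 1 and R14del-PLN RV replicate 3 the count was 0 of 10, with median deviations of -0.30, -0.15 and -0.27. Summed over the members, R14del-PLN RV held 223 TPM in replicate 1 against 136 and 126 in the others, while WT-PLN RV held 149, 174 and 174.

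This spread bears on the RV comparison. Without R14del-PLN RV replicate 1, the median member difference between genotypes in RV was -0.24 in place of -0.041, with 10 of 10 below 0 and 0 called, while the median of all genes stayed at -0.0037. Cd163 in RV was then -0.92 (limma adjusted p = 0.149), and Lyz2 was -0.37 against -0.048 with it. The signs of C1qa and C1qb in RV turned with that sample, to -0.17 and -0.24.

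Between the ventricles of WT-PLN hearts, C1qb showed the largest member difference. Its RV samples at 17.8, 20.01 and 18.4 TPM all lay below its LV samples at 22.02, 27.7 and 30.2 TPM. The RV minus LV log2 difference was -0.48 (SE 0.22, limma adjusted p = 0.3399), not called. Lyz2 differed by -0.44, C1qa by -0.39, C1qc by -0.35 and Csf1r by -0.30, each with overlapping ranges and a 95% interval that contained 0. Cd163 was the 1 member with a higher mean in RV, by 0.20 (95% interval -0.22 to 0.62).

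These values have to be read against a general shift. The median of all tested genes between RV and LV in WT-PLN was -0.17, 85.9% of genes were below 0, and the median member difference was -0.23. Under quantile normalisation the all-gene median moved to 0.0051 and that of the members to -0.062, and the differences of Cd68, Mrc1 and Lyve1 became positive. Relative to that centre C1qb was -0.29 and Cd163 0.38. By limma 0 of 10 members were called, as were 0% of all genes. At an unadjusted p under 0.05 there was 1 member, C1qb, against 14.5% of all genes and 13.8% counting lower genes alone. The ranges of 1 member (C1qb) did not overlap, against 26.1% of all genes and 25.2% counting lower genes alone.

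In R14del-PLN hearts the RV minus LV differences ran from -0.36 for C1qb to 0.14 for Cd163. C1qc was at -0.31, Cd68 at -0.21 and Lyz2 at -0.20, and the ranges of all 10 members overlapped between the ventricles, where 9.98% of all genes did not overlap. By limma 0 of 10 members and 0% of all genes were called, and 0 members had an unadjusted p under 0.05, against 6.57% of all genes. Of the members 7 of 10 were below 0, as were 70.3% of all genes. The median member difference was -0.17 beside -0.076 over all genes, and -0.38 without R14del-PLN RV replicate 1.

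**Figure D4:**
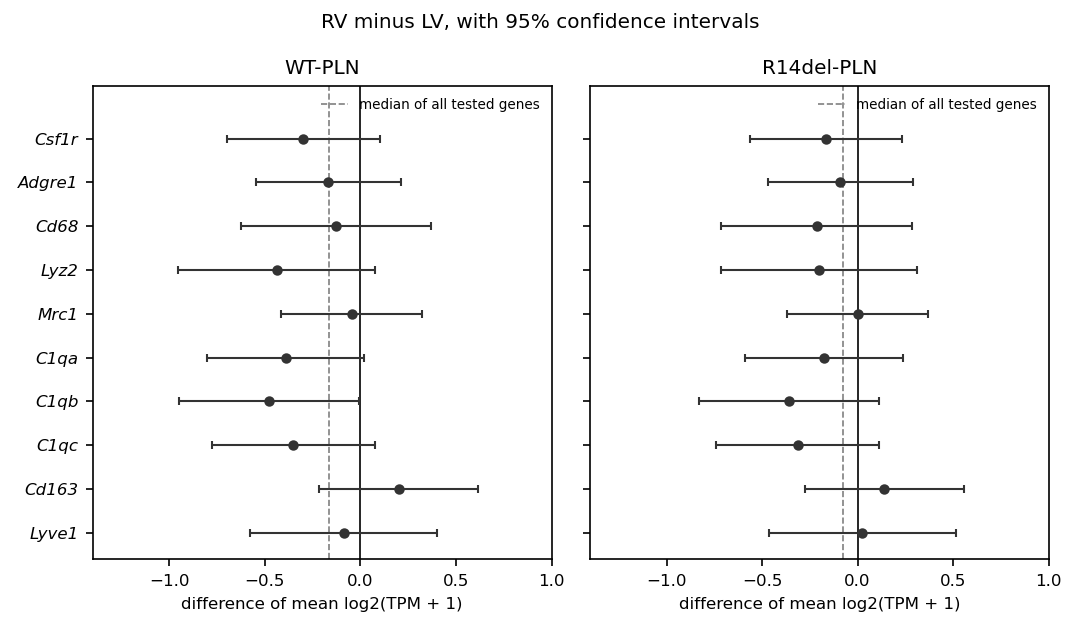
Difference of mean log2(TPM + 1), RV minus LV, for each marker gene in each genotype, with the limma estimate and its 95% confidence interval. The dashed line is the median of all tested genes, at -0.17 in WT-PLN and -0.076 in R14del-PLN, and the C1qb interval in WT-PLN, -0.95 to -0.0062, is the one that leaves out 0. The differences of Cd68, Mrc1 and Lyve1 in WT-PLN changed sign under quantile normalisation.

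The interaction of genotype and ventricle, which asks whether the genotype difference was unequal in RV and LV, was called for 0 of 10 members and for 0% of all genes by limma. At an unadjusted p under 0.05 there were 0 members, against 1.01% of all genes. The estimates ran from -0.085 for Cd68 (95% interval -0.79 to 0.62) to 0.24 for Lyz2 (-0.49 to 0.96).

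Genes that act around the members were read as lists. Of the 6 genes of the growth factor axis and lineage, 0 were called in LV or RV. Csf1, the ligand of the Csf1r product, differed by 0.33 in LV and 0.41 in RV, and Il34, its other ligand, by -0.46 and 0.073. The lineage factor gene Maf differed by 0.039 in LV. At an unadjusted limma p under 0.05 there were 2 of the 6 in LV, both lower, and 0 in RV. Of all genes 7.85% were lower in LV at that p. Spi1 did not overlap in LV, higher at 2.21 to 2.35 TPM in R14del-PLN against 1.655 to 1.84 in WT-PLN. The LV ranges of 1 other gene did not overlap and were lower, against 11% of all genes without overlap. The list's median was -0.085 in LV, -0.0064 there without WT-PLN LV replicate 3, and 0.11 in RV.

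Of 14 other pan-macrophage and myeloid genes, 12 were tested and 0 were called, with a median of -0.26 in LV, -0.15 there without WT-PLN LV replicate 3, and -0.090 in RV. Tyrobp, an adaptor of myeloid receptors, differed by -0.25 in LV, the protease gene Ctss by -0.28, the Fc receptor gene Fcgr3 by -0.47 (limma adjusted p = 0.435) and its signalling partner Fcer1g by -0.27. At an unadjusted limma p under 0.05 there were 3 genes in LV, all lower: Fcgr3, Cd14 and Trem2, against 7.85% of all genes counting lower genes alone. In RV there were 2, Cd14 lower and Aif1 higher, against 6.22% of all genes. Cd14, Trem2 and Aif1 were named after their values were seen.

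Of 9 genes of resident cardiac macrophages, 8 were tested and 0 were called, and 0 had an unadjusted limma p under 0.05 in either ventricle. Gas6, a bridging ligand for uptake of dying cells, differed by -0.12 in LV and 0.066 in RV. Cbr2 differed by 0.071 and 0.15, Pf4 by -0.038 and 0.13, and the coagulation factor gene F13a1 by -0.036 and 0.035. The list's median was -0.022 in LV, 0.17 there without WT-PLN LV replicate 3, and 0.13 in RV.

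The recruited monocyte list had 4 of 7 genes tested and 0 called, with a median of -0.32 in LV, -0.12 there without WT-PLN LV replicate 3, and -0.0089 in RV. Ccr2, the receptor that guides monocytes out of the blood, was at 0.497, 0.339 and 0.877 TPM in WT-PLN LV and 0.8404, 0.937 and 0.834 TPM in R14del-PLN LV, levels far under those of Csf1r per gene length. Its mean in RV was 0.824 TPM in WT-PLN and 1.36 TPM in R14del-PLN. Ccr2 differed by 0.27 in LV and 0.41 in RV, the opposite sign to the list's medians. Its average over ventricles was 0.34 (limma adjusted p = 0.350). Fn1, the fibronectin gene and the 1 of the list with an unadjusted limma p under 0.05, differed by -0.68 in LV (limma adjusted p = 0.412), Lgals3 by -0.41 and Ly6c2 by -0.24. Neutrophil genes summed to 0.804 to 15.3 TPM, the highest in a WT-PLN LV sample, with the defining gene Ly6g at or under 0.036 TPM. Of these 7 genes 3 were tested and 0 called, with a median log2 difference of -1.10 in LV and -0.20 in RV. At an unadjusted limma p under 0.05 there were 2 in LV, both lower, against 7.85% of all genes lower, and 0 in RV. Mmp9, a gene near the level for testing, did not overlap in LV, against 8.47% of all genes counting lower genes alone. It held 0.242 to 0.256 TPM in R14del-PLN LV and 0.480 to 0.580 in WT-PLN LV. S100a8, a neutrophil calcium-binding protein gene, measured 0.1902, 0.864 and 4.53 TPM in WT-PLN LV, and without WT-PLN LV replicate 3 the LV median was -0.39. The 10 lymphocyte genes summed to 0.749 to 2.03 TPM, and 0 of them reached the level for testing.

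MHC class II genes, which present antigen and are expressed by a part of heart macrophages, stood lower in R14del-PLN LV. H2-Eb1 measured 31.8, 46.1 and 51.7 TPM in WT-PLN LV and 10.8, 17.2 and 27.5 TPM in R14del-PLN LV. Cd74, the invariant chain, measured 67.1, 100.1 and 110 and 54.4, 41.3 and 49.4 TPM. In LV the ranges of 4 of 4 tested genes did not overlap, with a median log2 difference of -0.90 (-0.74 without WT-PLN LV replicate 3), 4 unadjusted p under 0.05 and 0 called, against 8.47% of all genes with ranges that did not overlap and were lower. Of all genes 7.85% were lower in LV at an unadjusted limma p under 0.05. In RV 4 of 4 were also below 0, with a median of -0.49 and 0 called. There 2 had an unadjusted limma p under 0.05, both lower, against 3.4% of all genes counting lower genes alone. The RV ranges of 1 of 4 (H2-Eb1) did not overlap, against 5.79% of all genes counting lower genes alone.

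In the averaged comparison H2-Eb1 (-0.97 log2, limma adjusted p = 0.0245) and Cd74 (-0.71, 0.0436) fell, and H2-Ab1 (-0.68, 0.0505) and H2-Aa (-0.59, 0.166) did not pass. Of all genes 0.982% were called lower there. Over 13 alternatives the call held in 8 for H2-Eb1 and 7 for Cd74, with limma adjusted p of 0.00633 to 0.157 and 0.00306 to 0.303, and both stayed below 0 in all 13. The part of MHC class II genes in the Cd163 difference was not tested.

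Of 10 genes of complement beside C1q, 9 were tested and 0 were called, with a median of -0.30 in LV, -0.031 there without WT-PLN LV replicate 3, and -0.23 in RV. Serping1, the inhibitor of C1, differed by -0.30 in LV, C3 by -0.15 and the C1 protease gene C1s1 by -0.35. Among the other cell types, 0 genes of the endothelial, fibroblast, mural, mesothelial, atrial and ventricular lists were called between genotypes in LV or RV. Their median log2 differences in LV were 0.066, -0.34, -0.070, -0.30, -2.62 and -0.041, and without WT-PLN LV replicate 3 they were 0.11, -0.20, 0.18, -0.18, -1.33 and 0.028. In RV they were 0.19, -0.11, 0.15, -0.90, 0.074 and 0.024. At an unadjusted limma p under 0.05 the counts in LV were, in this order, 1, 1, 0, 1, 1 and 0, against 9.6% of all genes. In RV they were 1, 0, 0, 3, 0 and 0, against 6.22%. The endothelial genes counted were higher and all others lower. The 3 mesothelial genes in RV were all that were tested, against 3.4% of all genes lower there, and their ranges overlapped. Myl7, an atrial myosin light chain gene, measured 39.4, 0.511 and 299 TPM in WT-PLN LV and 0.1895, 0.4398 and 0.329 TPM in R14del-PLN LV. The part of these cell types in the member values was not tested.

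The genes whose profile over the 12 samples was most like the mean profile of the members were Ssbp4 (Pearson correlation 0.96), Ncf1 (0.95), Fcer1g (0.95), Tyrobp (0.95) and Tmem176b (0.95). Over all tested genes the median was 0.47. Ncf1 encodes a subunit of the phagocyte oxidase, and Fcer1g and Tyrobp encode adaptors of myeloid receptors. With group means removed, the most alike were Ssbp4 (0.98), Scamp5 (0.97), Tcf21 (0.97), Nfam1 (0.97) and Nnat (0.97), with a median over all genes of 0.41. Tcf21 encodes a transcription factor of fibroblasts.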

How the data were processed

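RNA-seq of 12 ventricular samples (3 in each of 4 groups) was read from 1 table per sample. The deposited values are TPM per gene, made by the authors from stranded poly(A) libraries. The study's methods name CLC Genomics Workbench and GRCm38, and the program, gene annotation and strand setting of the counting behind the TPM tables are not given in the sources used here. TPM removes depth and length, and a shift in abundant genes, such as the 13 mitochondrially encoded ones, moves all others.

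Values were taken as log2(TPM + 1) and fitted in limma 3.58.1 (R 4.3.3) with 1 mean per group and an intensity trend, keeping genes whose mean over the 12 samples reached 0.5 TPM. Tests were two-sided, adjusted by Benjamini-Hochberg over 12526 genes, and calls required both an adjusted p no higher than 0.05 and a 1.5-fold difference. On simulated data for the LV comparison of 12526 genes, 85 of 100 genes changed 2-fold and 98 of 100 changed 4-fold were called, with 6 of 12326 unchanged. The simulated spread was drawn independently for each gene, whereas genes of the real samples deviated together. The changed genes were drawn from those above a set mean level, which Adgre1 did not reach. The simulated shares therefore do not give the power for the members. The average over ventricles, chosen after seeing the data, used a random block by genotype and number (statmod 1.5.0, consensus correlation 0.088).

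The members and lists were chosen with earlier results of these data known. All 10 members are named, with Lyz1. Of each list, called genes and otherwise up to 4 with the highest mean TPM are named, and 5 genes most like the members' mean profile. Some genes that this rule would name are not reported here. Exceptions, named after their values were seen, are Cd14, Trem2, Aif1, Spi1 and Ly6g. WT-PLN LV and RV samples of one number deviated together (correlations 0.66, 0.32 and 0.46), which pairs them by the rule used, and the block changed no member call there.

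Alternatives were other pseudocounts (0.5 and 0.1), other filters on low values, no trend, no fold threshold, only the compared samples, quantile normalisation, removal of mitochondrially encoded genes, scaling to the upper quartile, replicate blocks, each sample left out and both WT-PLN replicate 1 samples left out. The list counts without R14del-PLN RV replicate 1 and without WT-PLN LV replicate 3 were added after seeing the data. Upstream sequence came from RefSeq (GRCm38.p6), gene positions from GENCODE on GRCm38, and similar transcripts from BLAST 2.17.0. Python 3.11.15 with pandas 2.3.3, numpy 2.4.6, scipy 1.17.1 and matplotlib 3.10.9 was used. Protein sequences were not used here.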

Additional observations from a re-analysis of the deposited data

How the results depend on the processing

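The sign of the Cd163 genotype difference held in LV, in RV and in the average under all alternatives tried, and its call did not. For most alternatives that sign could not have turned. The Cd163 ranges did not overlap, so leaving out samples could not reverse it. Other filters, no trend, replicate blocks and only the compared samples left the estimate at -0.75 in LV and -0.81 in RV. With the number as a fixed replicate block 1 member was called in LV and 1 in RV, Cd163 in both (limma adjusted p = 0.0274 and 0.0242), in place of 0. Same-numbered samples of the genotypes are not known to share a source, and the correlations of their deviations were -0.021, 0.16 and 0.092 in LV and 0.061, 0.22 and 0.13 in RV. Those of R14del-PLN LV and RV were 0.39, 0.23 and 0.054. No other call of a member changed under a replicate block. In the average, 0 members in place of 1 were called with 1 mean per genotype and number, and leaving out a replicate gave 0 to 1. The other sign changes were of differences that were not called, and their cause was not tested. Under quantile normalisation the log2 differences that changed sign were, between genotypes in LV Mrc1 0.031, C1qb 0.025 and C1qc 0.023, for RV minus LV in WT-PLN Cd68 0.039, Mrc1 0.13 and Lyve1 0.091, for the interaction Adgre1 -0.019, Mrc1 -0.053 and C1qc -0.049. Under upper quartile scaling the log2 differences that changed sign were, between genotypes in LV Mrc1 0.020, C1qb 0.032 and C1qc 0.028, between genotypes in RV Cd68 0.0020, for RV minus LV in WT-PLN Cd68 0.032, Mrc1 0.12 and Lyve1 0.093, for the interaction Mrc1 -0.031 and C1qc -0.055. Under the scale without mitochondrially encoded genes the log2 differences that changed sign were, between genotypes in RV Csf1r 0.0047, Cd68 0.012 and Mrc1 0.0031, for RV minus LV in WT-PLN Mrc1 0.076 and Lyve1 0.042, for RV minus LV in R14del-PLN Adgre1 0.028. Under the omission of both WT-PLN replicate 1 samples the log2 differences that changed sign were, between genotypes in LV Cd68 -0.20, between genotypes in RV C1qa -0.085 and C1qb -0.0020, for the interaction Cd68 0.045. Between genotypes in LV, with 1 sample left out, they ran from -0.20 to 0.23 for Cd68, -0.20 to 0.062 for Mrc1, -0.24 to 0.017 for C1qb and -0.27 to 0.046 for C1qc. Between genotypes in RV, with 1 sample left out, they ran from -0.25 to 0.088 for Csf1r, -0.21 to 0.065 for Adgre1, -0.22 to 0.15 for Cd68, -0.13 to 0.066 for Mrc1, -0.37 to 0.14 for Lyz2, -0.17 to 0.19 for C1qa, -0.24 to 0.26 for C1qb and -0.24 to 0.12 for C1qc. For RV minus LV in WT-PLN, with 1 sample left out, they ran from -0.39 to 0.040 for Cd68, -0.17 to 0.089 for Mrc1 and -0.27 to 0.10 for Lyve1. For RV minus LV in R14del-PLN, with 1 sample left out, they ran from -0.25 to 0.018 for Adgre1, -0.14 to 0.11 for Mrc1 and -0.19 to 0.18 for Lyve1. For the interaction, with 1 sample left out, they ran from -0.088 to 0.28 for Csf1r, -0.077 to 0.22 for Adgre1, -0.28 to 0.18 for Cd68, -0.096 to 0.17 for Mrc1, -0.079 to 0.43 for Lyz2, -0.15 to 0.34 for C1qb, -0.15 to 0.22 for C1qc, -0.18 to 0.16 for Cd163 and -0.10 to 0.29 for Lyve1. Counts over all genes moved more: 65 genes were called in LV, from 19 without R14del-PLN LV replicate 1 to 231 without both WT-PLN replicate 1 samples, and 34 in RV, from 14 without WT-PLN RV replicate 2 to 88 under upper quartile scaling. RV against LV gave 0 to 12 in WT-PLN and 0 to 1 in R14del-PLN, the interaction 0 to 1, and the average 166, from 54 without R14del-PLN replicate 3 to 346 without WT-PLN replicate 1. With 3 samples a group and no read numbers, counting error could not be separated from other spread.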
